A study of Homo sapiens with 6 samples.

Results

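The histone cluster genes were taken as every row of the deposited count table whose symbol starts with HIST1H, HIST2H, HIST3H or HIST4H, which gave 73 of the 26485 genes listed. Counts were read in 6 poly(A) RNA libraries of HCC38, an established line from a breast ductal carcinoma labelled triple negative and basal-like. In 3 libraries CIP2A, a gene best known for an inhibitor of the phosphatase PP2A, had been silenced, each with its own siRNA (siCIP2A#1, siCIP2A#2 and siCIP2A#3). The 3 controls were 2 non-targeting siRNAs (SCR#2 and SCR#3) and 1 mock, and Oligofectamine was the transfection reagent. One label gives the mock as cells with the reagent alone, and the protocol calls it a control without transfection. Each of the 6 libraries had its own treatment, so the spread that the p-values rest on includes differences between siRNAs and between these and the mock. No treatment was repeated, so variation between cultures given the same one was not measured. The labels do not say whether the cultures were handled together.

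Histones package DNA into nucleosomes, which hold H2A, H2B, H3 and H4, while H1 binds the DNA between them. The cluster genes are mostly short and without introns, and they are transcribed chiefly in S phase, when new DNA is packaged. Their main mRNAs carry no poly(A) tail: they end just past a conserved stem-loop, which is bound by SLBP and cut with the help of the U7 small nuclear ribonucleoprotein. Poly(A) selection therefore removes most of this mRNA, and what passes includes polyadenylated forms that some of these genes also make. The counts below describe what passed the selection and not the total histone mRNA of the cells.

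The stem-loop is shown here because it is the feature that sets these mRNAs apart. A script searched the GENCODE 29 transcripts (GRCh38) after the stop codon for a 6-base stem with a 4-base loop, and found one in 32 of the 73 genes. It was found in 31 of the 32 genes whose annotated 3′ UTR has at least 60 bases, the exception being HIST1H2BJ. The sequences below run 5′ to 3′ on the gene's strand, with the 16 bases of stem and loop in capitals and 5 bases on either side in lower case.
HIST1H2AC (transcript at chr6:26124145-26139116, + strand): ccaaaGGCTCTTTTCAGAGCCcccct
HIST2H2BE (transcript at chr1:149884459-149886652, - strand): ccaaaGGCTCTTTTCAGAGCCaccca
HIST1H3H (transcript at chr6:27810064-27811300, + strand): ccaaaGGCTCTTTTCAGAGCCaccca
HIST1H2BD (transcript at chr6:26158146-26158641, + strand): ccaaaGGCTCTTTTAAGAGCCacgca
HIST1H2AG (transcript at chr6:27133042-27135291, + strand): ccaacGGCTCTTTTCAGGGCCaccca
HIST1H4H (transcript at chr6:26285113-26285509, - strand): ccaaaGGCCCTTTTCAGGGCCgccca
HIST1H4I (transcript at chr6:27138588-27139881, + strand): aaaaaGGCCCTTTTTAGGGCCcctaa
The form printed for HIST1H2AC was shared by 17 genes, 6 of them H2A, 8 H2B and 3 H3. The form of HIST1H4H, with another base pair in the stem, was found in 5 genes, all of them H4. The form of HIST1H2BD, with A at the end of its loop, was found in 5 genes, 3 H2B and 2 H3.

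Of the 73 genes, 18 had more than 3 counts in every library and are called detected. A further 34 had some counts without reaching that level everywhere, and 21 were at 0 in all 6 libraries. A count of 0 allows up to 3 counts, or 0.165 to 0.214 counts per 1000000 counts of the library (CPM) depending on the library. At least 10 counts in every library were reached by 15 genes and at least 100 by 4. The filter on low counts used for the tests kept 17 genes, and HIST1H4I, an H4 gene, was detected without passing it. The genes just inside that filter were HIST1H4H, HIST1H2AM and HIST1H2BN, with mean CPM of 0.834, 0.751 and 0.735. Those just outside were HIST1H4I, HIST1H2BO and HIST1H3D, with 0.422, 0.396 and 0.395 CPM.

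The 73 genes together summed to 150, 146 and 135 CPM in siCIP2A#1, #2 and #3, against 161, 133 and 138 CPM in the mock, SCR#2 and SCR#3. The mock was the highest library and SCR#2 the lowest, so the controls spanned the range of the siCIP2A libraries. The mean was 144 ± 7.85 CPM with siCIP2A and 144 ± 14.5 CPM in controls (SD, n = 3 each). As a share of all counts, the lowest library, SCR#2, had 0.0133% (95% interval 0.0128 to 0.0139%) and the highest, the mock, 0.0161% (0.0154 to 0.0167%). These exact Clopper-Pearson intervals cover counting error only. The 56 genes that were not tested summed to between 4.91 and 7.002 CPM per library.

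**Figure D1:**
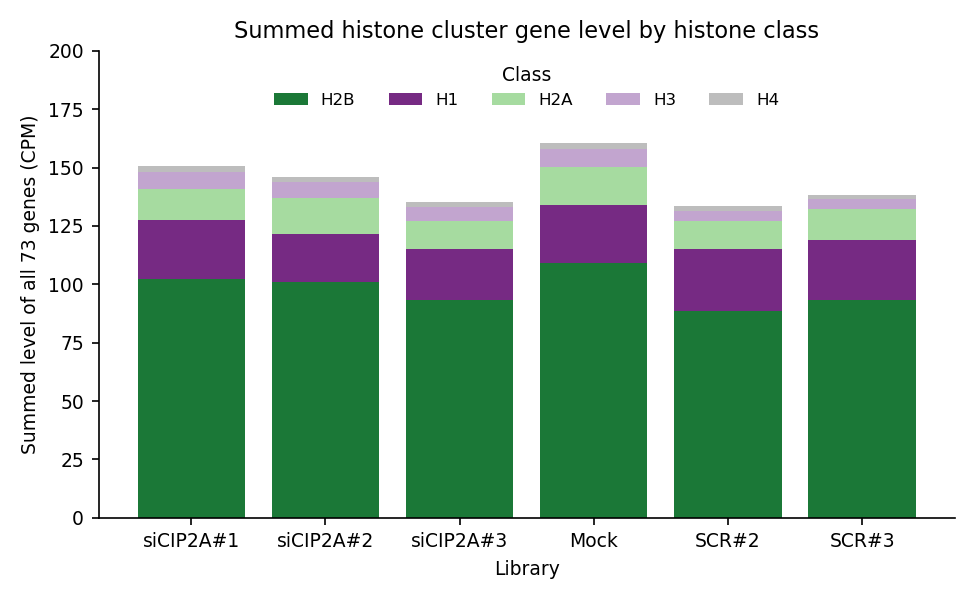
Stacked bars give the summed level (CPM) of all 73 histone cluster genes in each library, split by histone class, with the siCIP2A libraries on the left and the controls on the right. H2B genes fill most of every bar, and the sums lie between 133 CPM in SCR#2 and 161 CPM in the mock.

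Few genes carried these counts. HIST1H2BK alone held 45.3% of the 13860 counts over all libraries, the top 2 genes 61.8%, the top 5 80.1% and the top 10 89.7%. By class, the 20 H2B genes took 68.0% of the counts and 8 of them were detected. The 6 H1 genes took 16.9%, nearly all from HIST1H1C. The 18 H2A genes took 9.39% with 5 detected, the 14 H3 genes 4.24% with 2 detected, and the 15 H4 genes 1.52% with 2 detected. Nucleosomes hold the 4 core histones in equal amounts, and the poly(A) counts of their cluster genes were far from equal.

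By position, the 56 HIST1 genes, on chromosome 6, took 91.8% of the counts and 17 were detected. The 13 HIST2 genes, on chromosome 1, took 7.94%, with 9 at 0 and HIST2H2BE the only one detected. The 3 HIST3 genes, also on chromosome 1, took 0.173%, led by HIST3H2A with 21 counts. HIST4H4, the single HIST4 gene, on chromosome 12, had 13 counts.

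HIST1H2BK (H2BC12, chr6:27138293-27146858 in RefSeq, GRCh38.p14), an H2B gene, had 71.1, 65.3 and 61.6 CPM in siCIP2A#1, #2 and #3, against 72.4, 59.4 and 61.3 CPM in the mock, SCR#2 and SCR#3. The groups overlapped, with the mock and siCIP2A#1 highest. Its RefSeq span holds the gene HIST1H4I (H4C9), so where strand or overlap was not kept apart in counting, reads of one could count for the other. HIST1H1C (H1-2, chr6:26055740-26056470), which encodes the linker histone H1.2, had 24.9, 20.5 and 20.97 CPM in siCIP2A#1, #2 and #3, against 24.3, 26.3 and 25.3 CPM in the mock, SCR#2 and SCR#3. siCIP2A#2 and #3 lay below every control, while siCIP2A#1 lay among them.

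HIST2H2BE (H2BC21, chr1:149884459-149886682), an H2B gene with an annotated 3′ end 1729 bases past its stem-loop, had 10.4, 11.1 and 8.92 CPM with siCIP2A#1, #2 and #3, against 13.3, 9.29 and 13.0 CPM in the mock, SCR#2 and SCR#3. The groups overlapped through SCR#2. HIST1H2BD (H2BC5, chr6:26158121-26171349), another H2B gene, had 8.86, 8.43 and 10.2 CPM in siCIP2A#1, #2 and #3, against 9.15, 8.997 and 8.34 CPM in the mock, SCR#2 and SCR#3. It varied little between libraries. HIST1H2AC (H2AC6, chr6:26124172-26124690), the highest H2A gene, had 6.33, 6.82 and 5.61 CPM in siCIP2A#1, #2 and #3, against 8.36, 5.78 and 5.77 CPM in the mock, SCR#2 and SCR#3. Only the mock stood above the other libraries.

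HIST1H2BH (H2BC9, chr6:26251614-26252075), an H2B gene, had 2.26, 6.95 and 4.31 CPM in siCIP2A#1, #2 and #3, against 4.57, 3.15 and 2.78 CPM in the mock, SCR#2 and SCR#3. The highest and the lowest library were both siCIP2A libraries. HIST1H3H (H3C10, chr6:27810051-27810536), an H3 gene, had 3.30, 3.41 and 2.13 CPM with siCIP2A#1, #2 and #3, against 2.86, 1.29 and 1.09 CPM in the mock, SCR#2 and SCR#3. All siCIP2A libraries were above both non-targeting controls, and the mock lay among them. HIST1H3G (H3C8), the H3 gene with the highest count, had 3.03, 1.87 and 2.19 CPM in siCIP2A#1, #2 and #3, against 3.50, 2.16 and 2.58 CPM in the mock, SCR#2 and SCR#3. Its groups overlapped.

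HIST1H2BC (H2BC4), an H2B gene, had 3.74, 3.54 and 2.42 CPM in siCIP2A#1, #2 and #3, against 3.00, 2.22 and 2.10 CPM in the mock, SCR#2 and SCR#3. The mock again lay inside the siCIP2A range. The H2B gene HIST1H2BJ, the H2A genes HIST1H2AG and HIST1H2AE and the H2B gene HIST1H2BG averaged 2.11, 2.02, 2.01 and 1.48 CPM over the 6 libraries. HIST1H2AI, an H2A gene, averaged 1.01 CPM, and HIST1H4H, the highest H4 gene, 0.834 CPM.

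**Figure D2:**
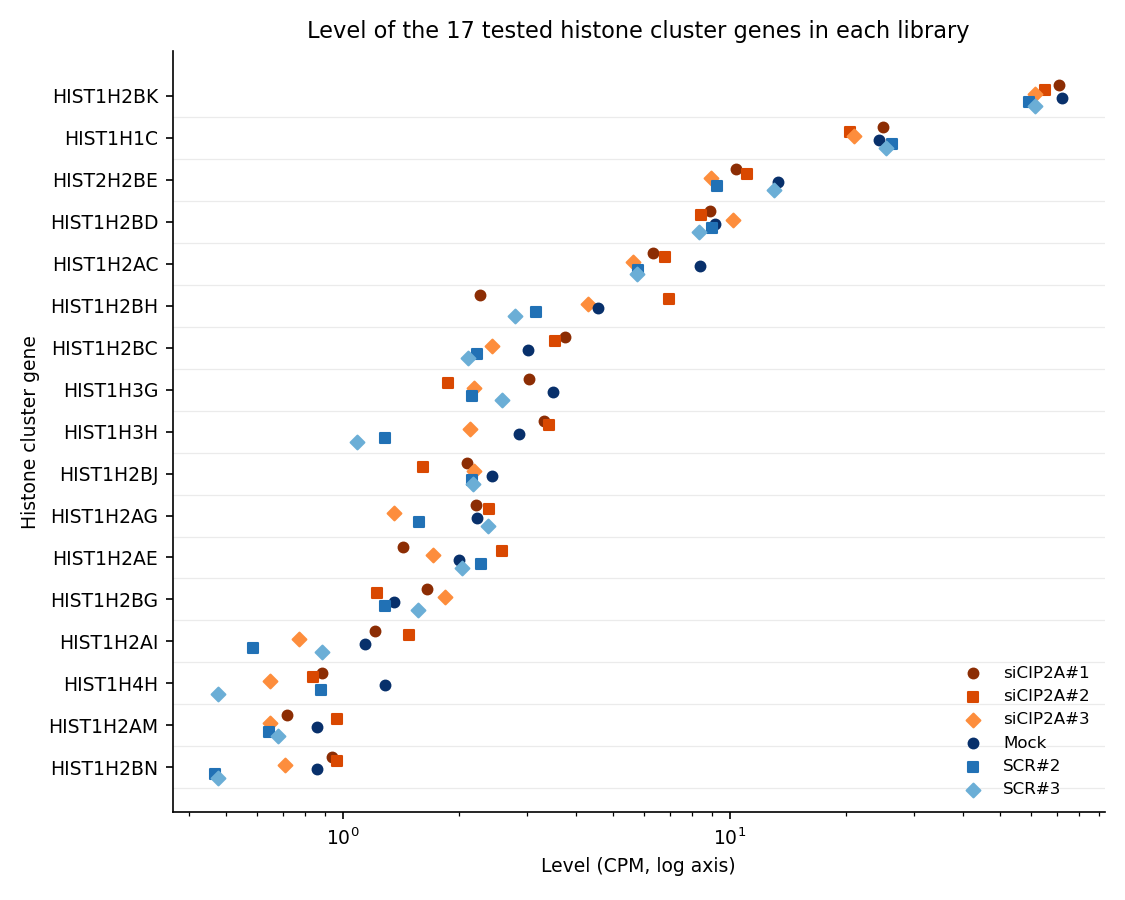
Each point is the level (CPM, log axis) of 1 of the 17 tested genes in 1 library, with siCIP2A libraries in orange tones and controls in blue tones, and genes ordered by total count. HIST1H2BK lies between 59.4 and 72.4 CPM, and in most rows the orange and blue points overlap.

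Levels of different genes were compared per kilobase of the longest GENCODE transcript (CPM per kb). HIST1H2BK had 171 CPM per kb and HIST1H1C 36.9, both from models that end at the stop codon, so any reads past it would inflate these values. HIST1H2BD had 11.4, HIST2H2BE 5.01, HIST1H2BC 4.31, HIST1H2AE 3.94 and HIST1H2AC 3.86 CPM per kb, and the median over the 17 tested genes was 2.01 CPM per kb. Over the coding length alone the median was 5.70 CPM per kb, and HIST2H2BE and HIST1H2AC came to 28.8 and 16.4 CPM per kb. HIST1H2BK was highest on both lengths, which are the same 381 bases for this gene. The annotation used for the counting is not known, so these lengths may not match the regions counted. The RefSeq gene spans 8566 bases for HIST1H2BK and 519 for HIST1H2AC, against longest GENCODE transcripts of 381 and 1668 bases.

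Some replication-dependent genes that are abundant in total RNA of dividing cells had few counts here. HIST1H4C, an H4 gene, had 13 counts over all 6 libraries, HIST1H1E, an H1 gene, 17, and HIST1H1B, another H1 gene, 22. Of the genes best known from testis, HIST1H2AA and HIST1H2BA were at 0 in every library, and HIST1H1T had 7 counts over all of them. HIST1H2AA and HIST1H2BA overlap SLC17A1 in RefSeq, and how reads in overlapping genes were counted is not known. Of the 14 genes that overlap another RefSeq gene, 9 were at 0, against 21 of all 73. The part of overlap in these 0 values was not tested. Windows of 75 bases were called shared if a transcript of another gene held them on either strand. Overlap on the opposite strand therefore counts as shared, as where HIST1H2AK lies inside a HIST1H2BN transcript. Genes with most windows shared had few counts. In 10 genes under 5% of the windows were found in no other gene, and of these 0 were tested and 7 were at 0. Among them were HIST2H2AA3 and HIST2H2AA4, HIST2H3A and HIST2H3C, and HIST2H4A and HIST2H4B, pairs of near-identical copies. No source used here says how reads that match several genes were counted, so a 0 for such a gene does not show that it was silent. Of the 21 genes at 0, 11 had at least 95% of their windows to themselves, HIST1H3E, HIST1H3I, HIST1H4L and HIST3H3 among them. Of the 50 genes with at least 95%, 14 were tested. HIST1H2BK, with the highest count, had 49.5%.

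**Figure D3:**
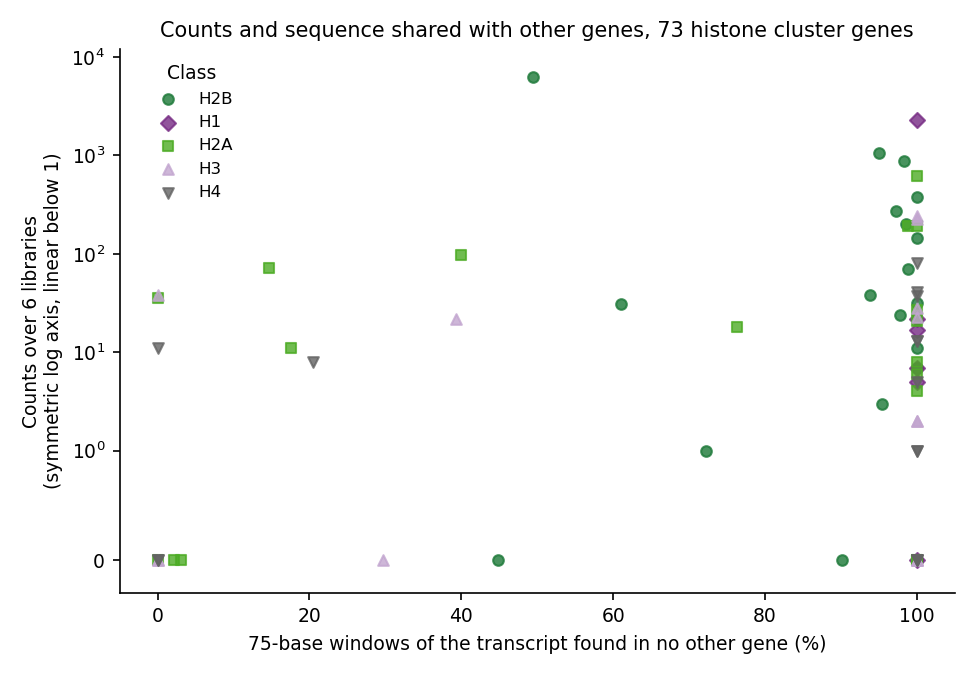
Each point is 1 of the 73 genes, coloured by class. The x axis gives the share of its 75-base transcript windows found in no other gene on either strand (%). The y axis gives its counts over 6 libraries on a symmetric log scale (linear below 1). No gene near 0% exceeds 38 counts, while genes at 100% range from 0 to 2288 counts, and HIST1H2BK lies at 49.5%.

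Annotated 3′ ends were set beside the counts. A transcript with the poly(A) signal AATAAA or ATTAAA in its last 50 bases was annotated for 22 genes, of which 11 were tested and 8 were at 0. Among the 48 coding genes without such a transcript, 6 were tested and 11 were at 0. These 48 include 34 whose model ends at the stop codon, where no signal could be found. Of those 34, 3 were tested and 10 were at 0, so the 22 and the 48 genes are not a fair comparison. In HIST1H2BC, HIST1H2BD, HIST1H2BJ and HIST1H2BN such a transcript lacks the stem-loop altogether, and all 4 of these H2B genes were tested. Of the 23 genes with an annotated 3′ end more than 100 bases past the stem-loop, 10 were tested, against 3 of the 9 with an end closer to it. HIST1H2BK, HIST1H1C and HIST1H2AM were the tested genes among the 34 whose GENCODE model ends at the stop codon, so no stem-loop or signal could be sought past it. Their RefSeq spans, all on the - strand, run further. They reach 27138293 against 27146418 in the model for HIST1H2BK, 26055740 against 26055787 for HIST1H1C, and 27892699 against 27892757 for HIST1H2AM. These counts are a description, with no test.

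Other RNAs known to lack a poly(A) tail were measured beside the histone genes. Of the 26 listed, MALAT1 and NEAT1 are given apart, since the end of MALAT1 holds an encoded stretch rich in A and a short form of NEAT1 is polyadenylated. MALAT1 had 520, 501 and 268 CPM in siCIP2A#1, #2 and #3, against 329, 461 and 476 CPM in the mock, SCR#2 and SCR#3. NEAT1 had 307, 279 and 182 CPM in siCIP2A#1, #2 and #3, against 253, 289 and 307 CPM in the mock, SCR#2 and SCR#3. Each of these RNAs was above the summed histone cluster genes in every library, and both were lowest in siCIP2A#3. The other 24 RNAs, of which 7 were at 0, summed to 5.45, 16.1 and 16.1 CPM in siCIP2A#1, #2 and #3, against 7.15, 5.02 and 17.3 CPM in the mock, SCR#2 and SCR#3. In that sum siCIP2A#2, siCIP2A#3 and SCR#3 were above the others, a split that follows neither the groups nor the order of MALAT1 and NEAT1. The 73 histone genes did not follow the split either: the mock and siCIP2A#1 had the highest sums. RN7SK, a small nuclear RNA that restrains transcription elongation, had 0.826, 5.08 and 5.91 CPM in siCIP2A#1, #2 and #3, against 1.57, 1.34 and 5.36 CPM in the mock, SCR#2 and SCR#3. The part of these RNAs in the histone values was not tested.

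Many histone genes outside the clusters make polyadenylated mRNA, and those listed here together passed the selection in far larger amounts. The 21 variant and replication-independent histone genes listed summed to 1694, 1721 and 1785 CPM in siCIP2A#1, #2 and #3, against 1833, 1711 and 1755 CPM in the mock, SCR#2 and SCR#3. That was 11.3, 11.8 and 13.2 times the sum of the cluster genes in the siCIP2A libraries, against 11.4, 12.8 and 12.7 times in the mock, SCR#2 and SCR#3. Of the 21 genes, 7 were at 0 and 10 were tested. The highest were H2AFZ, which encodes H2A.Z, between 479 and 532 CPM, and H3F3B, which encodes H3.3, between 420 and 509 CPM. H3F3A, which encodes the same H3.3 protein, is listed at 0 in every library, and as cells in general use it, the 0 may be a failed count.

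Many H2A and H2B genes stand head to head and share the promoter between them. There were 13 such pairs with 194 to 288 bases between the starts, and H2B had more counts in 6, H2A in 6, and both were at 0 in 1. Where H2B was higher, the partners HIST1H2AK, HIST1H2AD and HIST2H2AA4 had only 0, 2.19 and 3.06% of their windows to themselves. HIST1H2AK lies within a transcript of its own partner HIST1H2BN on the opposite strand, which counts as shared. How reads matching several genes were counted is not known, so these pairs do not show which gene was higher. HIST2H2BC, paired with HIST2H2AA4, is annotated as a transcribed pseudogene. Where H2A was higher, every H2B partner had 93.8% or more. Of the H2A genes in those pairs, HIST1H2AC, HIST1H2AE and HIST3H2A had 100%. HIST1H2AI, HIST1H2AM and HIST1H2AJ had only 39.9, 14.7 and 17.6%, so their pairs do not show which gene was higher either. HIST1H2BK had 6283 counts and its partner HIST1H2AH, 248 bases away, had 6. HIST2H2BE had 1048 counts and its partner HIST2H2AC, 236 bases away, had 18. Other pairs were closer in level: HIST1H2AC had 617 counts and HIST1H2BC 275, HIST1H2AG 193 and HIST1H2BJ 203, and HIST1H2AE 192 and HIST1H2BG 144.

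**Figure D4:**
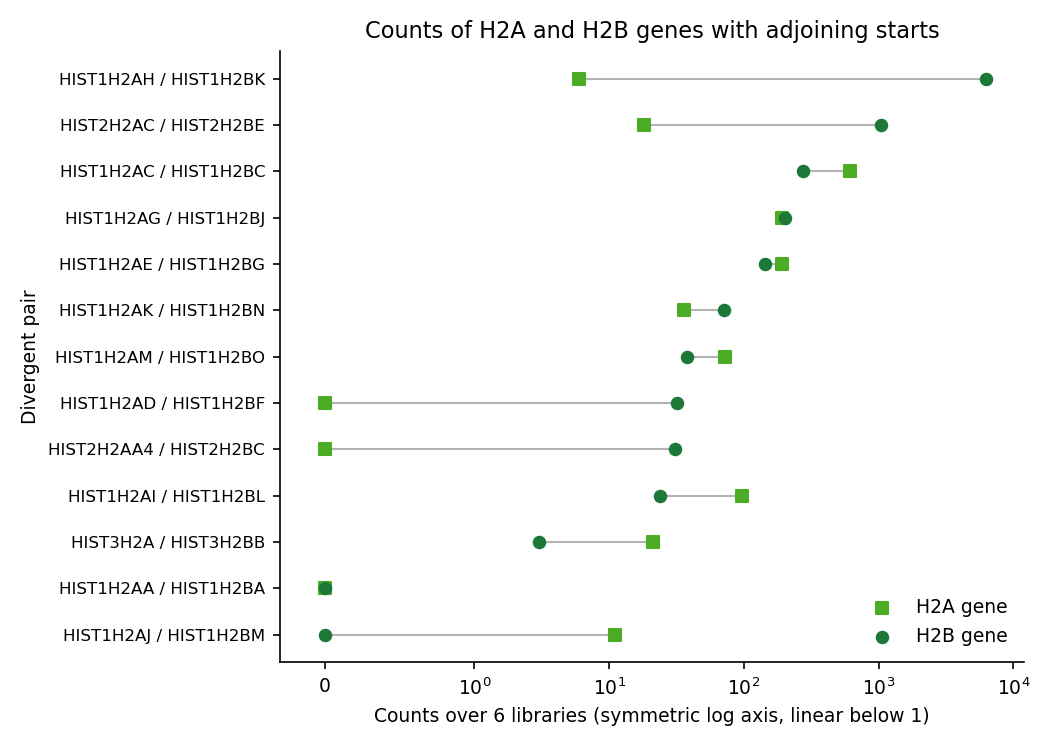
Rows are the 13 pairs of H2A and H2B genes with adjoining starts, and points give the counts of each gene over 6 libraries on a symmetric log axis (linear below 1). The pairs of HIST1H2BK and HIST2H2BE are the widest with both genes above 0, with 6283 against 6 and 1048 against 18 counts.

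The promoters of these 2 H2B genes are printed because they stand in pairs of most unequal level. Both come from RefSeq on GRCh38.p14, run from 250 bases before to 50 bases after the start on the gene's strand, and have in capitals each octamer ATTTGCAT, each TATA box form TATAAA or its variant with the letters TATATA, and each CCAAT box, on either strand, with overlapping matches joined.
HIST1H2BK (chr6:27146809-27147108, - strand): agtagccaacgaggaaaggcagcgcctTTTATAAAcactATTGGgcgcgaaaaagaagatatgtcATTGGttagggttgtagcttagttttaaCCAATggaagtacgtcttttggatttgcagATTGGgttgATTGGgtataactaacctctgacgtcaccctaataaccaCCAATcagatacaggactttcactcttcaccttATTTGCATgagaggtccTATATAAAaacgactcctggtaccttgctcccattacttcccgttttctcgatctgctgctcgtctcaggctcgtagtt
HIST2H2BE (chr1:149886633-149886932, - strand): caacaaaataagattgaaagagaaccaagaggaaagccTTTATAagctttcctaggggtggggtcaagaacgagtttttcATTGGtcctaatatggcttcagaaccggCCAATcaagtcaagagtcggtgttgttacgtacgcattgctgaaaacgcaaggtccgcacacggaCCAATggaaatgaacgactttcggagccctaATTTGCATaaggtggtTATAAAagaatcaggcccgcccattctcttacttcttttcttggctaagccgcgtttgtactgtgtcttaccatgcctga
ATTTGCAT is the octamer bound by OCT1 (POU2F1), which is known to act in H2B transcription with its coactivator OCA-S, and in both promoters it begins 46 bases before the start. It was found in 14 of 18 H2B promoters (77.8%), 11 of 16 H2A promoters (68.8%), 1 of 12 H3 promoters and 0 of the 6 H1 and 13 H4 promoters, against 2.19% of all 27305 promoters. H2A and H2B windows of a pair overlap, so their counts are not separate. A TATA box form was found in 49 of 65 histone promoters, against 16.5% of all promoters, and the CCAAT box in 55 of 65, against 39.7%. These letters are a description and were not read as sites.

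The siCIP2A libraries were then compared with the controls gene by gene. The targeted gene was lower in each siCIP2A library than in any control: CIP2A, listed as KIAA1524, had 16.6, 45.6 and 19.3 CPM in siCIP2A#1, #2 and #3, against 97.0, 99.7 and 103 CPM in the mock, SCR#2 and SCR#3. Its log2 difference was -1.90 ± 0.30 (SE, edgeR, adjusted p = 0.708), which did not pass, while without siCIP2A#2 the adjusted p was 1.2e-05. Each siRNA set against the controls on its own passed, with -2.62 for siCIP2A#1 (edgeR adjusted p = 0.00024), -1.13 for siCIP2A#2 (edgeR adjusted p = 0.016) and -2.38 for siCIP2A#3 (edgeR adjusted p = 0.00047). None of the 17 tested histone cluster genes changed by the quasi-likelihood test of edgeR (Benjamini-Hochberg adjusted p under 0.05 over 13562 genes), where 0% of all genes passed. DESeq2 and limma also called 0 of the 17. Their share over all genes is not given, here or in the comparisons below. These counts of 0 are therefore not a result particular to the histone genes. At an unadjusted p under 0.05 there were 0 of 17 in edgeR, against 369 of all genes tested (2.72%). The fitted log2 difference was above 0 in 9 genes and below 0 in 8, with a median of 0.02, beside -0.00 over all genes tested.

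HIST1H3H had the largest difference of the 17, with a log2 difference of 0.75 ± 0.35 (SE, edgeR, adjusted p = 0.999). HIST2H2BE had the lowest, at -0.25 ± 0.17 (SE, edgeR, adjusted p = 0.999), and HIST1H1C had -0.21 ± 0.12 (SE, edgeR, adjusted p = 0.999). HIST1H2BK, the main carrier of counts, had 0.02 ± 0.11 (SE, edgeR, adjusted p = 0.999). HIST1H2BN, HIST1H2AI and HIST1H2BC, all above 0 at 0.53, 0.40 and 0.39, had standard errors of 0.39, 0.37 and 0.25. With the mock as a level of its own, HIST1H3H came to 1.29 against the 2 non-targeting siRNAs (edgeR adjusted p = 0.874).

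Libraries scaled by TMM were also compared by range. All 3 siCIP2A libraries were above all 3 controls in 0 of 17 genes, against 3.26% of all genes tested, and below them in 1, HIST1H1C, against 4.38%. On CPM over library totals HIST1H1C overlapped, the members gave 0 in either direction, and all genes gave 584 above and 437 below in place of 442 and 594. The plan gave the ranges on CPM, and those on TMM-scaled values were added after seeing the data.

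**Figure D5:**
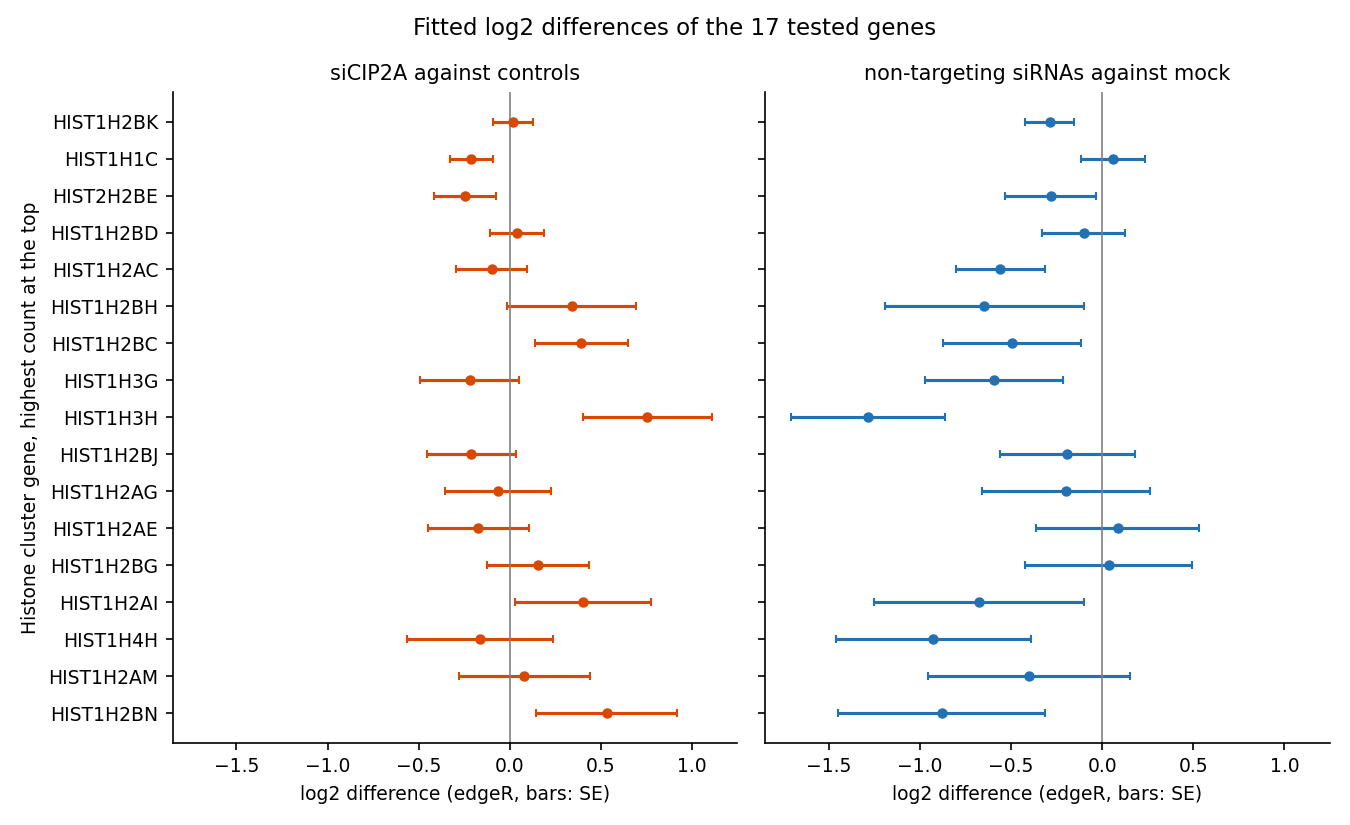
Points give the fitted log2 difference of the 17 tested genes with its standard error (edgeR), on the left for siCIP2A against controls and on the right for the non-targeting siRNAs against the mock. On the left 9 lie above 0 and 8 below, and on the right 14 of 17 lie below 0.

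With each siRNA set against the 3 controls, again 0 of 17 genes passed (edgeR). Of all genes, 0.118% passed for siCIP2A#1, 0.0737% for siCIP2A#2 and 0.00737% for siCIP2A#3. DESeq2 and limma also called 0 of the 17 for each. At an unadjusted p under 0.05 edgeR had 0, 1 and 0 of the 17 for siCIP2A#1, #2 and #3, against 9.95, 11.6 and 8.22% of all genes. These 3 comparisons share the controls, and each rests on 1 siCIP2A library, assumed to vary like the controls. The median log2 difference of the 17 was -0.02 with siCIP2A#1 (8 above 0 and 9 below), 0.04 with siCIP2A#2 (10 and 7) and -0.16 with siCIP2A#3 (5 and 12). HIST1H2BH had a log2 difference of 0.99 ± 0.28 with siCIP2A#2 (SE, edgeR, adjusted p = 0.287), -0.66 ± 0.34 with siCIP2A#1 (adjusted p = 0.581) and 0.29 ± 0.30 with siCIP2A#3 (adjusted p = 0.847). HIST1H3H had 0.91 ± 0.44, 0.99 ± 0.46 and 0.30 ± 0.49 with siCIP2A#1, #2 and #3 (SE, edgeR, adjusted p = 0.562, 0.446 and 0.914). Without the mock, 1 of 17 passed for siCIP2A#1 (HIST1H3H), against 13.8% of the 13782 genes tested there, and 3 of 17 for siCIP2A#2 (HIST1H1C, HIST1H2BH and HIST1H3H), against 22.4%. Neither count was above the share of all genes.

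Within the controls, the mock was mostly above the non-targeting libraries at these genes. Over all 6 libraries it was the highest in 6 of the 17, and siCIP2A#2 in 7, with the share over all genes not given here. Both non-targeting libraries were below the mock in 13 of 17 genes, against 40.5% of all genes tested, and above it in 1, HIST1H1C, against 40%. On library totals the first count was also 13, against 36.4% of all genes. The median log2 difference of the 17 was -0.40, beside 0.00 over all genes tested, with 3 above 0 and 14 below. By edgeR 0 of 17 passed, as did 0% of all genes, and DESeq2 and limma called 0 as well; the mock is assumed to vary like the other libraries. HIST1H3H had -1.28 ± 0.42 (SE, edgeR, adjusted p = 0.703) and HIST1H2AC -0.56 ± 0.24 (SE, edgeR, adjusted p = 0.780), which were the 2 genes with an unadjusted p under 0.05, a level reached by 6.31% of all genes. HIST1H2BK had -0.29 ± 0.13 (SE, edgeR, adjusted p = 0.791). There was 1 mock library, so what sets that library apart and what the non-targeting siRNAs do cannot be told apart.

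Genes that act on histone mRNA or with histones were read from lists chosen, like the members, with earlier results known. Among 36 tested genes of histone mRNA transcription, 3′ processing and decay, 0 passed with siCIP2A (edgeR), 14 were above 0 and 22 below, and the median was -0.03. SLBP, the stem-loop binding protein, had 121 ± 7.69 CPM with siCIP2A and 129 ± 3.08 CPM in controls (SD, n = 3 each), a log2 difference of -0.11 (edgeR adjusted p = 0.999). NPAT, the coactivator of these genes in S phase, had -0.06, and CASP8AP2, a further component of histone locus bodies, -0.01. DCP2, a decapping enzyme, had 81.5 ± 12.8 CPM with siCIP2A and 66.2 ± 4.59 CPM in controls (log2 difference 0.28, edgeR adjusted p = 0.999).

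Of 34 histone chaperone genes, 0 passed, 13 were above 0 and 21 below, with a median of -0.04. RBBP7, a histone-binding subunit of several chromatin complexes, had 312 ± 43.2 CPM with siCIP2A and 367 ± 19.0 CPM in controls (SD, n = 3 each, log2 difference -0.25, edgeR adjusted p = 0.999). Of 10 tested variant histone genes, 0 passed, 3 were above 0 and 7 below, with a median of -0.06. H2AFX, which encodes the H2A.X phosphorylated at DNA breaks, had 102, 112 and 108 CPM in siCIP2A#1, #2 and #3, against 143, 97.7 and 101 CPM in the mock, SCR#2 and SCR#3. It too was highest in the mock.

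Because the cluster genes are transcribed in S phase, 33 S phase genes were set beside them. With siCIP2A 0 passed (edgeR), 7 were above 0 and 26 below, and the median was -0.11. TYMS, thymidylate synthase, had 223 ± 17.5 CPM with siCIP2A and 265 ± 18.4 CPM in controls (SD, n = 3 each, log2 difference -0.27, edgeR adjusted p = 0.999). CDC6, which loads the replicative helicase, had 58.6 ± 6.64 CPM with siCIP2A and 70.6 ± 5.66 CPM in controls (log2 difference -0.29, edgeR adjusted p = 0.999). By siRNA the S phase medians were -0.15, -0.20 and 0.02 with siCIP2A#1, #2 and #3, where the histone medians were -0.02, 0.04 and -0.16. Between the non-targeting siRNAs and the mock, 29 of the 33 were below 0 with a median of -0.16, in the same direction as the histone genes. Whether this has a part in the histone values was not tested.

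Library totals lay between 13995187 counts in the mock and 18161451 in siCIP2A#1. The labelled cell type was only partly seen in its markers: KRT6A and KRT14 were at 0 and KRT5 and KRT17 at no more than 1 count in any library, while EGFR lay between 74.2 and 83.4 CPM and VIM between 4300 and 4802 CPM. LAMB3, also a basal marker, lay between 131 and 204 CPM. Of the luminal and hormone receptor markers, ESR1 and PGR reached at most 0.351 and 0.117 CPM, and GATA3 and FOXA1 at most 1.09 and 1.57 CPM. KRT8 lay between 253 and 446, KRT18 between 396 and 721 and ERBB2 between 48.3 and 74.1 CPM. PTPRC, a leukocyte marker, was at 0, and of the endothelial markers CDH5 was at 0 and PECAM1 lay between 3.01 and 6.33 CPM. Of the fibroblast markers, COL1A1 lay between 4.61 and 14.6 CPM, PDGFRB between 0.709 and 2.42 CPM and DCN between 0.214 and 0.708 CPM. In bulk RNA, fewer cells in S phase and less histone RNA per cell cannot be told apart.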

How the data were processed

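Poly(A) RNA of 6 libraries was prepared with a stranded TruSeq mRNA kit, per the labels' protocols. The submitters' processing notes name bcl2fastq 2.17, STAR 2.5.4b, Subread 1.5.1 and hg38. The sources used here do not give the annotation, the strand setting or the handling of multi-mapping reads. The authors deposited 1 table of raw counts, whole numbers with no normalization, per the file headers.

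From these counts, CPM was computed over library totals. Genes passing filterByExpr (minimum count 10) were scaled by TMM and tested with edgeR 4.0.16 in R 4.3.3 (robust quasi-likelihood, Benjamini-Hochberg over 13562 genes), with DESeq2 1.42.0 and limma 3.58.1 as alternatives. The siCIP2A comparison has 4 residual degrees of freedom, non-targeting against mock 3, and each single siRNA 2. Scripts were tested on simulated data. The members and lists were chosen with earlier results of these data known. Named genes were the 15 with the highest CPM, those with the smallest p in each direction, the highest of each class and cluster, those at the filter, list genes with the smallest p and fixed genes such as SLBP. HIST1H4C, HIST1H1E, HIST1H1B, the genes named at 0 and the partners in pairs were named after their values were seen. Chi-square per degree of freedom between libraries of a group was 3.10 to 17.1, so none was a copy.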

Additional observations from a re-analysis of the deposited data

How the results depend on the processing

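No tested histone cluster gene passed in siCIP2A against controls, siCIP2A#3 against controls or non-targeting siRNAs against mock under any alternative run (scaling, filter, DESeq2, limma, libraries left out). Leaving out 1 library gave 0 to 1 calls for siCIP2A#1 and 0 to 3 for siCIP2A#2, both highs without the mock, where 13.8% and 22.4% of all genes passed. For the other alternative runs the share of all genes that passed is not given. A lack of calls there is therefore not a result particular to the histone genes. The median log2 difference with siCIP2A (0.02) ranged from -0.10 to 0.12 with 1 library left out, the lowest without siCIP2A#2. It was 0.12 once the mock had its own level. The replicate numbers did not pair the libraries (correlations of deviations -0.117, -0.128 and 0.0076 for numbers 1, 2 and 3). With the replicate number as a block, 0 histone cluster genes passed and the median was 0.02, so the block changed no call of these genes. CIP2A itself did pass: its adjusted p, 0.708 otherwise, was 0.0345 with the block (edgeR). The share of counts was 0.00788% without HIST1H2BK, against 0.0144% with it, and the median level was 5.70 against 2.01 CPM per kb on coding length. Of 235 single-gene values 218 kept their sign and 17 did not. With the mock as a separate level, HIST1H2AC came to 0.11, HIST1H2AG to 0.0024 and HIST1H4H to 0.19. With 1 library left out, HIST1H2AC ranged from -0.20 to 0.11, HIST1H2AE from -0.45 to 0.0085, HIST1H2AG from -0.24 to 0.14, HIST1H2AM from -0.10 to 0.22, HIST1H2BD from -0.050 to 0.087, HIST1H2BH from -0.12 to 0.68, HIST1H2BK from -0.042 to 0.12 and HIST1H4H from -0.46 to 0.19; the cause was not tested. Most of the 73 genes lie near 3 counts, where a difference between groups was not detectable at this depth.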
